A study of Mus musculus with 15 samples.

Results

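Transcripts of 10 genes of the bone morphogenetic protein (BMP) pathway were followed in RNA-seq libraries of mouse intestinal organoids that had either lost Apc or acquired a Ptprk-Rspo3 rearrangement. The genes were chosen by name, by matching the Ensembl identifiers of the deposited tables to gene symbols, and are the ligands Bmp2, Bmp4 and Bmp7, the receptor Bmpr1a, the decoy receptor Bambi, the inhibitory SMADs Smad6 and Smad7, and the targets Id1, Id2 and Id3. All 10 of 10 were found among the 43629 genes of the count table, each under 1 identifier. Their behaviour in 13 libraries is described below, with 5 WT, 4 Apc and 4 P-Rspo3 libraries.

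All organoids were of the strain C57B6/129 and came, per the study's methods, from the proximal small intestine. The WT group held 4 APC flox/flox lines, numbered 1, 2, 5 and 6, and 1 dox-naive culture of mice that carry a doxycycline-inducible Cas9, all grown in ENR medium (EGF, Noggin and R-spondin 1). The Apc group held the Apc delta/delta derivatives with the same 4 line numbers, grown in EN medium (EGF and Noggin, without R-spondin). The P-Rspo3 group held 4 cultures with the Ptprk-Rspo3 rearrangement, named 15d, 4d, M and F, also in EN medium. These were made by Cas9 cutting in bulk cultures that were then grown without R-spondin, so each is a mixed population rather than 1 clone. Noggin, a secreted protein that binds and blocks BMP ligands, was therefore present in the medium of every group. Medium and genotype cannot be told apart in either comparison with WT, whereas Apc and P-Rspo3 organoids shared their medium and differed in the mouse line they came from. No source used here says that the libraries of a group came from separate animals, so p-values measure the spread between these libraries.

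BMPs are secreted ligands of the TGF-beta superfamily that bind pairs of type I and type II serine/threonine kinase receptors. The activated type I receptor, such as the one encoded by Bmpr1a, phosphorylates SMAD1, SMAD5 and SMAD9, which enter the nucleus with SMAD4 and switch on targets such as the ID genes. The pathway is held in check outside the cell by antagonists such as Noggin, at the membrane by BAMBI, a receptor look-alike without a kinase domain, and inside the cell by SMAD6 and SMAD7. In the small intestine, BMP signalling is known to be low in the crypt, where stem cells reside, and higher along the villus, where it restrains stem cell renewal.

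Promoter sequence is shown for the members that changed most and have a window in the RefSeq promoter table (GRCm38.p6), which held 5 of the 10 members (Bmp4, Bmpr1a, Id2, Id3 and Smad6). For Bmp4 and Smad6, the 250 bases before the RefSeq start are printed 5′ to 3′ on the strand of the gene, at chr14:46390670-46390919 and chr9:64022060-64022309, both on the minus strand. They overlap no exon of the GENCODE annotation. Capitals mark GTCT or its reverse complement (the SMAD-binding letters) and the E-box CACGTG.
Bmp4: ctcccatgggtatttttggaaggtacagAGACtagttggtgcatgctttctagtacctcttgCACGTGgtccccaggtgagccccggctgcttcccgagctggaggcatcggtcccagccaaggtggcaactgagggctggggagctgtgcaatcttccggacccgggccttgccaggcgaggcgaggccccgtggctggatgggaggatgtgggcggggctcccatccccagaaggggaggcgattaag
Smad6: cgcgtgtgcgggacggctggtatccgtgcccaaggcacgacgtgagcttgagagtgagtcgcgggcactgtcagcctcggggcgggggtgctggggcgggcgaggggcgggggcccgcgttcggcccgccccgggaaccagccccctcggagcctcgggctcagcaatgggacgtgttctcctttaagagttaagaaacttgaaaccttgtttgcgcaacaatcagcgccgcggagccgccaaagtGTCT

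For Id2 and Id3, only 30 bases around the motif are printed, with the motif in capitals, because their windows overlap untranslated exons of GENCODE transcripts of the same genes. Of the 250 bases before the start, 161 of Id2 lie in an exon of Id2-202. All 250 of Id3 lie in an exon of Id3-201, so both Id3 stretches are within that transcript. The Id2 stretch lies at chr12:25096306-25096335 on the minus strand and holds GGCGCC, the GC-rich letters of the BMP response element. The Id3 stretches lie at chr4:136143643-136143672 and chr4:136143741-136143770 on the plus strand and hold GTCT, the first of them as its reverse complement.
Id2 GGCGCC: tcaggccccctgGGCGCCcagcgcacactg
Id3 GTCT, distal site (-166): tgtcctcggcgtcAGACcagcctaaggaag
Id3 GTCT, proximal site (-68): tggacccttggcgGTCTgttttgaataagg

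Positions were counted from the RefSeq start, with -1 as the base before it, and both strands were searched over the whole of each window, 250 bases before to 50 after the start. GGCGCC stood in the windows of Id2 (first base at -231) and Bmpr1a (-198), and in 11.9% of all 32851 promoter windows. GTCT stood in all 5 windows and in 88.0% of all windows, so its presence sets the members apart from few promoters. GGCGCC followed after 5 bases by GTCT was found in none of the 5 and in 0.0731% of all windows. CACGTG was found only in the Bmp4 window among these 5 (-188) and in 7.15% of all windows, and CTTTGAT, the core letters of a TCF/LEF site, in none of the 5 and in 3.73% of all. A match describes the letters only, and none of these data bear on binding.

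Each library held 28902729 to 35528495 counts. Levels are given as CPM, counts scaled to the size of the library, after TMM normalization, which sets library sizes so that most genes do not change, and levels of different genes are compared as the authors' FPKM, which divides by transcript length. Genes were tested on the counts with edgeR's quasi-likelihood test if they reached an FPKM of 0.1 in at least 4 libraries, and were called higher or lower at a Benjamini-Hochberg adjusted p under 0.05 with an absolute log2 fold change above 1. Rspo3 was at 539 to 1079 counts in the P-Rspo3 libraries, at most 1 count in WT and 7 to 57 counts in Apc. Apc transcripts were not lower in the Apc group (254.6 to 280.2 CPM against 143.2 to 201.1 in WT), and a count over the whole gene does not check the loss of an exon. The epithelial markers Epcam, Cdh1, Vil1, Krt8, Krt18 and Cdx2 summed to 1347 to 1563 FPKM in WT, 1556 to 1880 in Apc and 1278 to 1557 in P-Rspo3. Of these, Vil1 was called lower in Apc than in WT (log2 fold change -1.26, adjusted p = 8.7e-06) and Krt18 higher (1.11, adjusted p = 1.3e-05). The summed level of 8 enterocyte markers was 8290 to 16258 FPKM in WT, 5530 to 13635 in P-Rspo3 and 47.5 to 87.1 in Apc, and all 8 were called lower in Apc than in WT. The 4 endothelial markers summed to 0.341 to 0.507 FPKM in WT, 0.276 to 0.817 in P-Rspo3 and 2.35 to 2.68 in Apc. Cdh5 and Tek were called higher in Apc than in WT, and Pecam1 was called lower (3 to 10 counts against 21 to 36). Cdh5 and Tek reached the FPKM threshold in enough libraries only through Apc, so they were tested by way of their level there. Kdr was at 0 counts in every grouped library. The 5 immune markers summed to at most 2.04 FPKM in any library. In such bulk libraries, fewer cells of a type and less RNA per cell cannot be told apart, and the part of the lost enterocyte transcripts in the differences of BMP genes described below was not tested.

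Among the members, the ID targets and the receptor were the most abundant per transcript length. In WT, Id2 stood at 37.6 ± 9.97 FPKM (SD, n = 5), Bmpr1a at 29.3 ± 3.57, Id1 at 22.2 ± 6.31 and Id3 at 11.3 ± 3.40. The ranges of neighbours in this order overlapped, and a gap separated Id3 from the next member, Bmp7, at 4.06 ± 0.857 FPKM. Smad7 (2.56 ± 0.452), Bmp2 (2.25 ± 0.834) and Smad6 (1.81 ± 0.167) followed with overlapping ranges. Bambi (0.406 ± 0.0969) and Bmp4 (0.0392 ± 0.0615) were lowest, each apart from the member above it.

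In Apc the order of FPKM was Id2, Id3, Id1, Bmpr1a, Bmp7, Smad7, Bmp4, Bambi, Smad6 and Bmp2. Id2 stood at 85.5 ± 17.5 FPKM (SD, n = 4), Id3 at 57.5 ± 27.4, Id1 at 42.0 ± 16.4 and Bmpr1a at 36.4 ± 1.18, with overlapping ranges from each to the next. Bmp7, at 14.7 ± 1.97 FPKM, was apart from both of its neighbours, and the 5 members below it overlapped each with the next. In P-Rspo3 the order ran from Bmpr1a (27.9 ± 2.58, n = 4) and Id2 (27.5 ± 8.25) to Bambi (0.470 ± 0.215) and Bmp4 (0.269 ± 0.286), and no neighbours in it were apart. Bmp2 thus ranked last of the 10 in Apc, while Bmp4 ranked last in WT and in P-Rspo3.

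**Figure D1:**
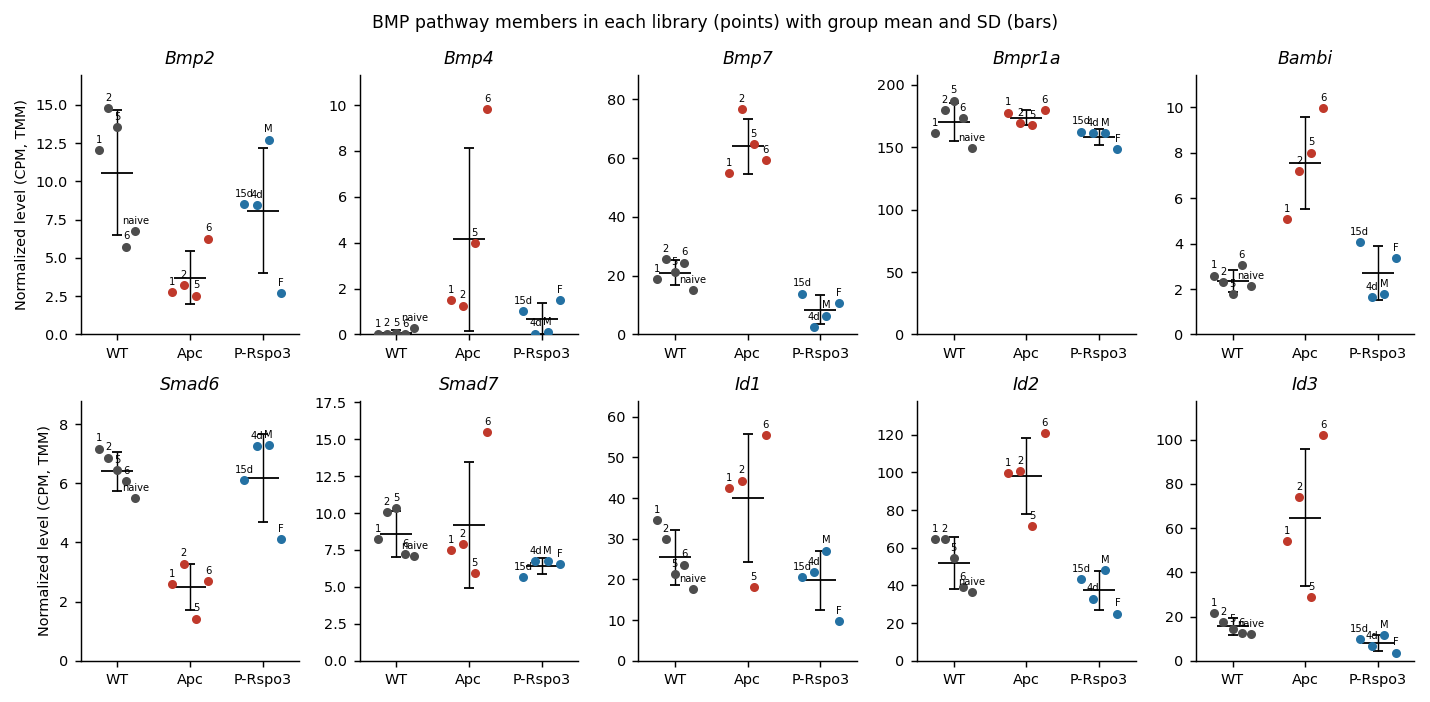
TMM-normalized CPM (y axis, from 0, a scale of its own in each panel) of the 10 genes in each library of WT, Apc and P-Rspo3 (points, named by replicate), with the group mean and SD as bars, cut at 0 for Bmp4. The Apc libraries lie above all others for Bmp7, Bambi, Id2 and Id3, and below all others for Smad6; for Bmp4 they lie above WT and overlap the P-Rspo3 culture F.

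The first comparison asked how the pathway differed between Apc-deleted organoids and WT. Bmp4, Bmp7, Bambi and Id3 were higher in Apc, and Bmp2 and Smad6 were lower. This makes 4 of the 10 members called higher, where 12.2% of all 16749 genes tested were called higher, and 2 called lower, where 14.1% were. Id2 also differed, by less than the fold threshold, and Id1, Smad7 and Bmpr1a did not pass the test. The median log2 fold change was 0.77 over the 10 members and 0.00 over all genes tested.

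Bmp4 (ENSMUSG00000021835, chr14:46383520-46390669, minus strand, GRCm38), a ligand made mainly by mesenchymal cells in the intact gut, was close to absent from WT. The WT libraries held 0, 1, 2 and 0 counts in lines 1, 2, 5 and 6 and 8 counts in the dox-naive library, and the Apc libraries held 59, 44, 151 and 406 counts in lines 1, 2, 5 and 6. The groups did not overlap, and line 6 stood highest in Apc. The log2 fold change was 5.69 ± 0.92 (SE, adjusted p = 0.00032). Of the WT libraries, only the dox-naive one reached the FPKM threshold, so Bmp4 was tested by way of its level in Apc. The deposited counts come without a stated strand setting, and Bmp4 overlaps the opposite-strand genes Gm15217 and Gm15222, so their reads could not be separated with certainty. Of 9 fibroblast and smooth muscle markers, 5 held at most 3 counts in every Apc library and 6 in every WT library, and the list summed to 0.241 to 0.420 FPKM in Apc and 0.0832 to 0.210 in WT. By line, the sum was 0.241, 0.245, 0.394 and 0.420 FPKM in Apc lines 1, 2, 5 and 6, so lines 5 and 6 stood highest, as they did for Bmp4. The part of such cells in the level of Bmp4 was not tested. Of the list, Pdgfra was called higher in Apc (54 to 73 counts against 0 to 4 in WT) and Pdgfrb lower (0 to 8 counts against 18 to 39). Pdgfra reached the FPKM threshold only in Apc, so it too was tested by way of its level there. The other genes of the list were too low to be tested. Col1a1 was at 1 to 15 counts in Apc and 0 to 7 in WT, and Acta2 at 1 to 9 and 0 to 2. Col1a2, Col3a1 and Des were at 0 or 1 count, and Lum and Dcn at 0 counts, in every library of both groups.

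Bmp7 (ENSMUSG00000008999, chr2:172868012-172940321, minus strand), a ligand of epithelial and mesenchymal tissues, was the most even of the differences. Its level in WT was 18.8, 25.6, 21.2 and 24.5 CPM in lines 1, 2, 5 and 6 and 15.04 in the dox-naive library, against 54.9, 76.7, 64.9 and 59.5 CPM in Apc lines 1, 2, 5 and 6. The lowest Apc library lay above the highest WT library. Between organoids with the same line number, Apc exceeded WT by 2.43 to 3.06 times in 4 of 4 lines, and the log2 fold change was 1.59 ± 0.15 (SE, adjusted p = 7.2e-06).

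Bmp2 (ENSMUSG00000027358, chr2:133552159-133562885, plus strand), which in the intestine is made by differentiated epithelium as well as by mesenchyme, went the other way. It stood at 12.04, 14.8, 13.5 and 5.73 CPM in WT lines 1, 2, 5 and 6 and 6.76 in the dox-naive library, and at 2.79, 3.23, 2.54 and 6.26 CPM in the 4 Apc lines in the same order. The groups overlapped through line 6, in which Apc was at 1.09 times WT, whereas lines 1, 2 and 5 held 0.188 to 0.232 times their WT level. The log2 fold change was -1.53 ± 0.36 (SE, adjusted p = 0.0039).

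At the receptor, Bmpr1a (ENSMUSG00000021796, chr14:34410734-34503341, minus strand) was level. Its libraries ran from 149.0 to 187.4 CPM in WT and from 167.6 to 179.5 in Apc, so that the Apc range lay inside that of WT, and the log2 fold change was 0.01 ± 0.07 (SE, adjusted p = 0.94). On the FPKM scale, Bmpr1a was higher in every Apc library (35.1 to 37.9) than in any WT library (24.1 to 32.9), and the median of all genes on that scale was itself shifted upward in Apc, by 0.28 on log2(FPKM + 0.1). An antisense gene, Gm17110, overlaps Bmpr1a.

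Bambi, the membrane decoy, is known as a target of both BMP and Wnt signalling. It was at 2.59, 2.30, 1.77 and 3.04 CPM in WT lines 1, 2, 5 and 6 and 2.12 in the dox-naive library, and at 5.09, 7.19, 8.01 and 9.98 CPM in the Apc lines. The groups did not overlap, and Apc exceeded WT in 4 of 4 lines, by 1.96 to 4.52 times. The log2 fold change was 1.66 ± 0.22 (SE, adjusted p = 8.7e-05). Bambi (ENSMUSG00000024232, chr18:3507923-3516404, plus strand, GRCm38) and Smad7 (ENSMUSG00000025880, chr18:75367529-75395935, plus strand) are the members on that chromosome.

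The inhibitory SMADs parted. Smad6 (ENSMUSG00000036867, chr9:63953076-64022059, minus strand), the more selective inhibitor of BMP receptors, was at 7.17, 6.87, 6.44 and 6.08 CPM in WT lines 1, 2, 5 and 6 and 5.49 in the dox-naive library, and at 2.58, 3.28, 1.43 and 2.68 CPM in Apc. No Apc library reached the WT range, Apc was at 0.222 to 0.478 times WT in 4 of 4 lines, and the log2 fold change was -1.38 ± 0.23 (SE, adjusted p = 0.00035). Smad7, which inhibits TGF-beta as well as BMP receptors, was at 7.47, 7.88 and 5.94 CPM in Apc lines 1, 2 and 5 and at 15.5 in line 6, against 7.08 to 10.36 CPM in WT. It was lower than WT in 3 of 4 lines and 2.14 times WT in line 6, and its log2 fold change was 0.08 ± 0.26 (SE, adjusted p = 0.82), or -0.29 without the Apc library of line 6.

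The ID genes encode helix-loop-helix proteins that lack a DNA-binding region, sequester E proteins and hold back differentiation. Id3 (ENSMUSG00000007872, chr4:136143497-136145755, plus strand) differed most of the 3. It was at 21.5, 17.5, 14.3 and 12.6 CPM in WT lines 1, 2, 5 and 6 and 12.1 in the dox-naive library, and at 54.1, 73.9, 28.7 and 101.9 CPM in Apc. All Apc libraries were above all WT libraries, by 2.005 to 8.083 times within lines, and the log2 fold change was 2.03 ± 0.32 (SE, adjusted p = 0.00024).

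Id2 (ENSMUSG00000020644, chr12:25093799-25097140, minus strand) was at 64.8, 64.6, 54.6 and 39.0 CPM in WT lines 1, 2, 5 and 6 and 36.3 in the dox-naive library, and at 99.7, 100.7, 71.4 and 120.7 CPM in Apc. The groups again did not overlap, with Apc at 1.31 to 3.10 times WT within lines. Its log2 fold change of 0.90 ± 0.20 (SE, adjusted p = 0.0027) was under the fold threshold, and rose to 1.03 without the Apc library of line 5. Id1 (ENSMUSG00000042745, chr2:152736251-152737410, plus strand) was at 34.5, 29.9, 21.4 and 23.6 CPM in WT lines 1, 2, 5 and 6 and 17.7 in the dox-naive library, and at 42.4, 44.3, 18.1 and 55.4 CPM in Apc. Line 5 lay inside the WT range, and the log2 fold change of 0.64 ± 0.29 (SE) did not pass the test (adjusted p = 0.081). Over the 10 members, 6 had groups that did not overlap in CPM, 5 upward and 1 downward, and so had 51.9% of all genes tested.

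**Figure D2:**
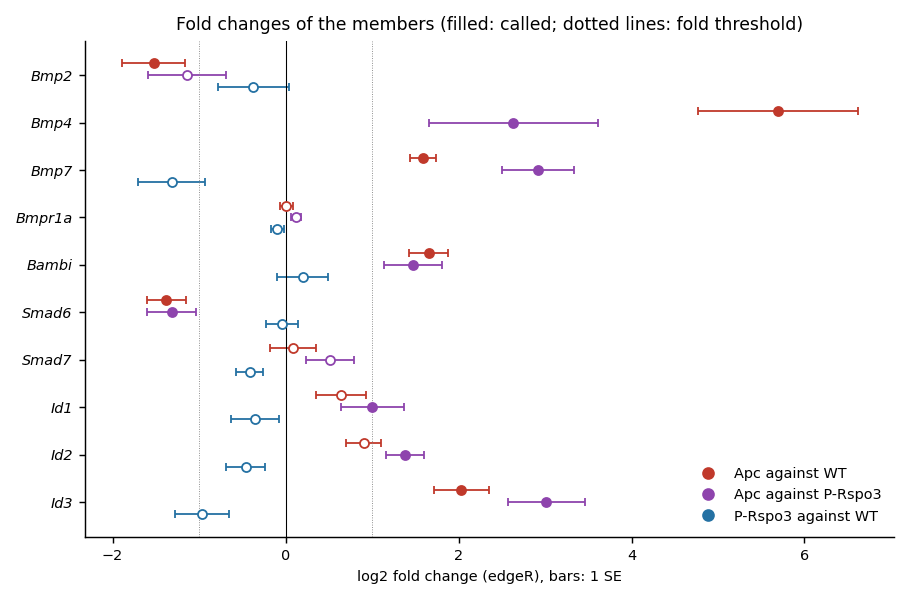
Log2 fold changes from edgeR with 1 SE (x axis) of the 10 genes in the 3 comparisons (colours), with filled points for genes called and dotted lines at the fold threshold; Bmp4 was not tested between P-Rspo3 and WT. The largest changes are those of Bmp4, at 5.69 between Apc and WT, and of Id3, at 3.01 between Apc and P-Rspo3, and no point of P-Rspo3 against WT is filled.

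The second comparison placed the rearranged P-Rspo3 organoids beside WT. No member was called by edgeR's quasi-likelihood test, and 3 of the 9 tested had an unadjusted p under 0.05 (Bmp7, Id3 and Smad7). Of the 15992 genes tested, 0.00625% were called, a single gene, Rspo3 itself, while 2159 genes had an unadjusted p under 0.05. Over all genes, DESeq2 called 228 with 1 member among them, and edgeR called 266 and no member without the dox-naive WT library. The members' log2 fold changes were below 0 for 8 of the 9 tested, with a median of -0.37 against 0.00 over all genes tested.

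Bmp7 lay lower in P-Rspo3, at 13.9, 2.57, 6.43 and 10.7 CPM in 15d, 4d, M and F, against a lowest WT library of 15.04. The log2 fold change was -1.32 ± 0.39 (SE) with an adjusted p of 0.19, and DESeq2 called it lower (adjusted p = 0.015). Without 1 library at a time, its log2 fold change ran from -1.67 to -1.02 and was never called.

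Id3 was at 9.89, 6.45, 11.7 and 3.66 CPM in 15d, 4d, M and F, all under the lowest WT library at 12.1. Its log2 fold change was -0.97 ± 0.31 (SE, adjusted p = 0.22), and DESeq2 gave an adjusted p of 0.044 with a fold under the threshold. On the FPKM scale, Id3 overlapped WT, with a highest culture at 8.60 and a lowest WT library at 8.51. Smad7 was at 5.64, 6.76, 6.72 and 6.52 CPM, all under the lowest WT library at 7.08, with a log2 fold change of -0.41 ± 0.16 (SE, adjusted p = 0.28). On the FPKM scale, Smad7 ran from 1.26 to 3.09 in P-Rspo3 and overlapped WT (1.99 to 3.02), a spread that the counts did not show. Bmp7, Id3 and Smad7 were the 3 of 10 members whose groups did not overlap in CPM, where 4.88% of the genes tested did not.

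Of the remaining members, Id2 (24.99 to 48.3 CPM) had a log2 fold change of -0.46 ± 0.23 (SE, adjusted p = 0.41) and Id1 (9.79 to 27.1 CPM) of -0.35 ± 0.28 (adjusted p = 0.63). Bmp2 was at 8.51, 8.43, 12.7 and 2.71 CPM in 15d, 4d, M and F, with the F culture alone below the WT range, and its log2 fold change was -0.37 ± 0.41 (adjusted p = 0.74). Bambi, Bmpr1a and Smad6 had log2 fold changes of 0.20 ± 0.30, -0.10 ± 0.08 and -0.04 ± 0.19, with adjusted p of 0.83, 0.62 and 0.96. When the type of mouse line was added as a term, which leaves the dox-naive library as the only WT library to compare with, the signs of Bmp2, Bmpr1a, Id1, Id2 and Smad6 turned positive, and those of Bmp7 and Id3 did not, with every adjusted p at 1.

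Bmp4 was too low to be tested here, since only 2 P-Rspo3 cultures and 1 WT library reached an FPKM of 0.1. The cultures fell apart, with 33 counts in 15d and 41 in F, and 1 count in 4d and 3 in M. Summed fibroblast and smooth muscle markers were 0.633 FPKM in 15d and 0.238 in F, and 0.320 in 4d and 0.246 in M. Pdgfrb, at 50 to 145 counts and up to 0.587 FPKM, made up much of these sums, and no other gene of the list exceeded 9 counts. The part of such cells in the level of Bmp4 was not tested. Bambi and Bmp7 ordered the cultures alike, lowest in 4d, then M, F and 15d (1.63 to 4.07 CPM for Bambi).

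The third comparison set Apc directly against P-Rspo3, both grown without R-spondin. It uses the same Apc and P-Rspo3 libraries as the comparisons above, so its values are not independent of them. Bmp4, Bmp7, Bambi, Id1, Id2 and Id3 were called higher in Apc, 6 of 10 members where 13.4% of 16456 genes tested were called higher, and Smad6 was called lower, 1 of 10 where 13.3% were. Bmp4 passed the FPKM filter in this comparison only through Apc, with 2 P-Rspo3 cultures reaching 0.1. The median log2 fold change was 1.19 over the members and 0.00 over all genes tested. In CPM, 6 of the 10 had groups that did not overlap, Bmp7, Bambi, Id2, Id3 and Bmpr1a upward and Smad6 downward, as had 53.9% of all genes tested.

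Id3 and Bmp7 had the largest log2 fold changes of the members in this comparison. For Id3 the lowest Apc library (28.7 CPM) was above the highest P-Rspo3 culture (11.7), with a log2 fold change of 3.01 ± 0.45 (SE, adjusted p = 0.00035). For Bmp7 the lowest Apc library (54.9 CPM) was above the highest P-Rspo3 culture (13.9), with a log2 fold change of 2.92 ± 0.42 (adjusted p = 0.00027). Id2 followed at 1.38 ± 0.22 (adjusted p = 0.00053) and Bambi at 1.47 ± 0.34 (adjusted p = 0.0044), both without overlap. Smad6 was at 1.43 to 3.28 CPM in Apc and 4.10 to 7.28 in P-Rspo3, with a log2 fold change of -1.32 ± 0.28 (adjusted p = 0.0032), and the groups overlapped in FPKM (0.495 to 1.24 and 1.13 to 2.53).

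The calls of Id1 and Bmp4 were close to the thresholds. Id1 had a log2 fold change of 1.00 ± 0.37 (SE, adjusted p = 0.042), its groups overlapped through Apc line 5 (18.1 CPM), and the call was lost on leaving out any 1 of Apc lines 1, 2 and 6 and the cultures 15d, 4d and F, with log2 fold changes between 0.77 and 1.05. Bmp4 had a log2 fold change of 2.64 ± 0.98 (adjusted p = 0.044), and its call was lost without Apc line 5 or 6 or without the culture 15d, 4d or M, with a lowest log2 fold change of 1.76 without Apc line 6. The groups overlapped in CPM through the culture F (1.503), above Apc line 2 (1.26), while 15d, at 1.02, was below every Apc line.

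Bmp2 fell on the other side of the line, with a log2 fold change of -1.14 ± 0.45 (SE, adjusted p = 0.056). It was called lower in 6 of 18 alternative settings. Among them were those without Apc line 6 (-1.51, adjusted p = 0.021) or the culture F (-1.43, adjusted p = 0.0074), and DESeq2 (adjusted p = 0.021). Smad7 (0.51 ± 0.28, adjusted p = 0.15) and Bmpr1a (0.12 ± 0.06, adjusted p = 0.10) were not called, although the lowest Apc library for Bmpr1a (167.6 CPM) was just above the highest P-Rspo3 culture (162.6).

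Within each group, the ID genes shared their lowest and their highest library. In Apc, line 5 was lowest and line 6 highest for Id1, Id2 and Id3, with lines 1 and 2 between in the same order, and Bmp2 and Smad7 followed that order as well. The highest Apc library exceeded the lowest by 3.07 times for Id1, 1.69 for Id2, 3.55 for Id3, 2.47 for Bmp2 and 2.60 for Smad7. Among the P-Rspo3 cultures, F was lowest and M highest for Id1, Id2, Id3, Bmp2 and Smad6, spanning 1.77 times for Smad6 to 4.69 times for Bmp2. In WT the dox-naive library was lowest and line 1 highest for Id1, Id2, Id3 and Smad6, spanning 1.31 times for Smad6 to 1.95 times for Id1. Bmp7 and Bambi kept other orders in all 3 groups.

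Of the ligands, Bmp2 followed the order of Id2 and Id3 in Apc and in P-Rspo3 but not in WT. Bmp4 was highest in Apc line 6 and next in line 5, the libraries at opposite ends for the ID genes, and in P-Rspo3 it was highest in F, where the ID genes were lowest. Summed enterocyte markers were highest in F among the P-Rspo3 cultures (13635 FPKM against 5530 to 7072 in the others) and lowest in line 6 among the Apc libraries (47.5 FPKM against 69.1 to 87.1). In WT they were lowest in line 6 (8290 FPKM) and highest in line 5 (16258), which were not the ends for any ID gene. The part of these markers in the order of the libraries was not tested, and with 4 or 5 libraries a group no correlation is given.

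**Figure D3:**
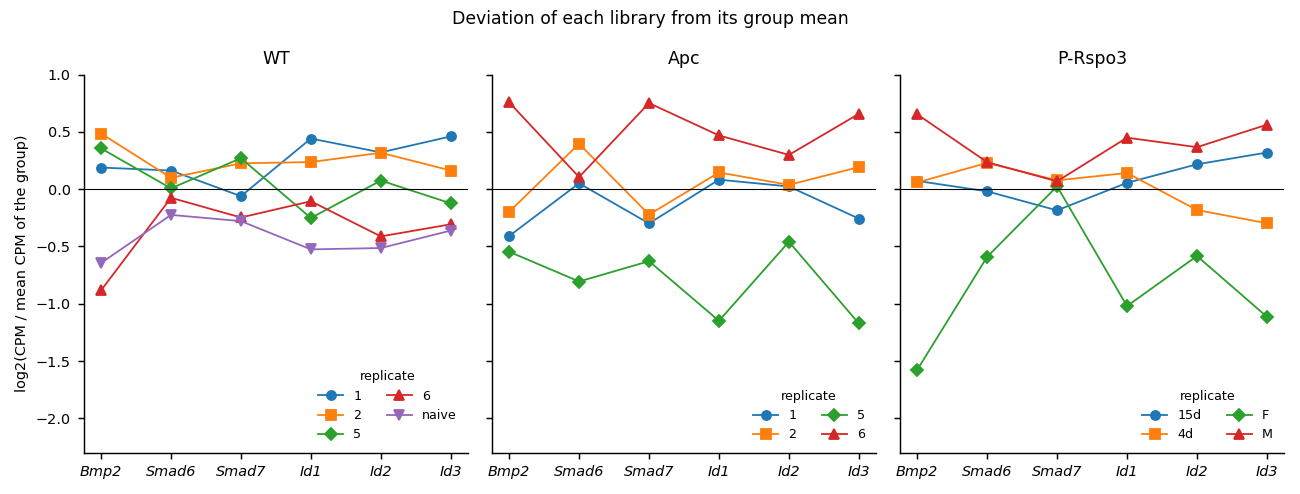
Log2 ratio of each library's CPM to the mean CPM of its group (y axis) for 6 members (x axis), in WT, Apc and P-Rspo3, with 1 line per library. Apc line 5 lies lowest and line 6 highest for Id1, Id2 and Id3, and the P-Rspo3 culture F lies lowest for all of the 6 but Smad7.

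The rest of the pathway was examined in 60 further BMP genes grouped by role, of which 36 passed the filter on FPKM in the comparison of Apc with WT. Of these, 10 were called higher and 2 lower, beside 12.2% and 14.1% of all genes tested, 24 were not called, and 24 of the 60 were not tested. A further 12 had an adjusted p under 0.05 at a smaller fold. The median log2 fold change was 0.20 over the 36 and 0.00 over all genes tested, and 3 of the 36 passed the filter only through Apc. Of these 3, Bmp6 and Htra1 were called higher.

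Among the other ligands, 3 were called higher and 2 lower of 6 tested. Bmp8b was at 0.92 to 1.83 CPM in WT and rose to 25.8 to 56.3 in Apc, a log2 fold change of 5.09 ± 0.27 (SE, adjusted p = 1.1e-07). Bmp8a, its paralog, had a log2 fold change of -0.40 ± 0.30 (adjusted p = 0.28). Reads shared between these paralogs could affect both values and were not measured. Gdf11, a ligand of activin receptors, was at 0.64 to 1.74 CPM in WT and rose to 11.7 to 26.3 in Apc (4.33 ± 0.35, adjusted p = 2.1e-06), and Bmp6 rose by 1.90 ± 0.39 (adjusted p = 0.0016). Bmp6 passed the FPKM filter only through Apc, so it was tested by way of its level there. Bmp3, which opposes other BMPs, fell by 1.40 on the log2 scale (SE 0.32, adjusted p = 0.0029), and Gdf9, known from the oocyte, fell by 4.17 (SE 0.49, adjusted p = 3.2e-05). Bmp5, Gdf2 and Gdf6 were at 0 counts in every grouped library.

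None of the tested receptors, co-receptors and signalling SMADs of this list passed the fold threshold between Apc and WT. Eng (3 to 8 counts in WT and 1 to 4 in Apc), Bmpr1b and Smad9 were too low to be tested. Mean FPKM in WT and Apc was 4.75 and 7.42 for the type II receptor Bmpr2, 4.82 and 7.02 for the type I receptor Acvr1, and 9.28 and 10.40 for Acvr2a. It was 11.2 and 13.3 for Smad1, 9.79 and 13.9 for Smad5, and 44.6 and 53.9 for Smad4. On the counts, the log2 fold changes were 0.35 ± 0.08 (SE) for Bmpr2, 0.23 ± 0.10 for Acvr1 and -0.22 ± 0.07 for Acvr2a, the last opposite in direction to its FPKM. They were -0.04 ± 0.10 for Smad1, 0.25 ± 0.09 for Smad5 and -0.02 ± 0.08 for Smad4. Bmpr1b was at no more than 1 count in any grouped library, and Smad9 stayed at a mean of 0.192 FPKM or less in each group, so Bmpr1a and Acvr1 were the type I BMP receptors seen at several FPKM and Smad1 and Smad5 the signalling SMADs. Mean FPKM was 1.68 in WT and 3.04 in Apc for Acvr2b, 0.234 and 0.144 for Acvrl1, 17.6 and 21.3 for Smad2, and 12.6 and 19.7 for Smad3. On the counts, the log2 fold changes were 0.54 ± 0.12 (SE) for Acvr2b, -0.87 ± 0.37 for Acvrl1, -0.03 ± 0.06 for Smad2 and 0.34 ± 0.08 for Smad3. The co-receptors Rgmb and Neo1 stood at 24.8 and 16.8 FPKM in WT and 16.2 and 16.1 in Apc, and Rgma and Eng at 0.158 and 0.0956 in WT and 0.220 and 0.0191 in Apc. In P-Rspo3 the means were 5.07 FPKM for Bmpr2, 4.69 for Acvr1, 9.35 for Smad1, 10.8 for Smad5 and 43.1 for Smad4.

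Of the 16 extracellular inhibitors and modulators, 6 were tested, and 2 of these, Nbl1 and Htra1, were called higher in Apc, as were 12.2% of all genes tested. Nbl1, a secreted BMP antagonist, was at 1.28 to 2.67 CPM in WT and rose to 7.67 to 11.02 in Apc (2.15 ± 0.22, SE, adjusted p = 1.1e-05). Htra1, a secreted protease, was at no more than 1 count in any WT library and at 19, 26, 37 and 266 counts in Apc lines 1, 2, 5 and 6, with line 6 highest as for Bmp4. Htra1 passed the FPKM filter only through Apc, so it was tested by way of its level there. The antagonists Nog, Grem1, Chrdl1, Sost and Sostdc1 were at 0 to 5 counts in every grouped library. Chrd and Fst, also too low to be tested, were higher in every Apc library than in any other. Chrd was at 15 to 23 counts in Apc, 1 to 5 in WT and 1 to 3 in P-Rspo3, and Fst at 6 to 39, 0 to 4 and 1 to 3. Fstl1 and Fstl3 had log2 fold changes of -1.97 and -0.59 between Apc and WT and were not called. These genes are named after their values were seen.

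Inside the cell, Tgif1, a repressor that acts on SMAD complexes, was the single called gene of its role. It was at 45.6 to 59.2 CPM in WT and rose to 115.3 to 124.9 in Apc (1.17 ± 0.08, SE, adjusted p = 6.2e-07). Of the targets beyond the members, 4 of 7 were tested and these 4 were called higher, as were 12.2% of all genes tested. Msx1, a homeobox gene, was at 0.42 to 3.72 CPM in WT and rose to 19.8 to 79.0 in Apc (4.86 ± 0.61, adjusted p = 5.1e-05), Zfp503 by 2.68 ± 0.48 (adjusted p = 0.0006), Id4 by 1.73 ± 0.51 (adjusted p = 0.014) and Atoh8 by 1.498 ± 0.36 (adjusted p = 0.0039).

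**Figure D4:**
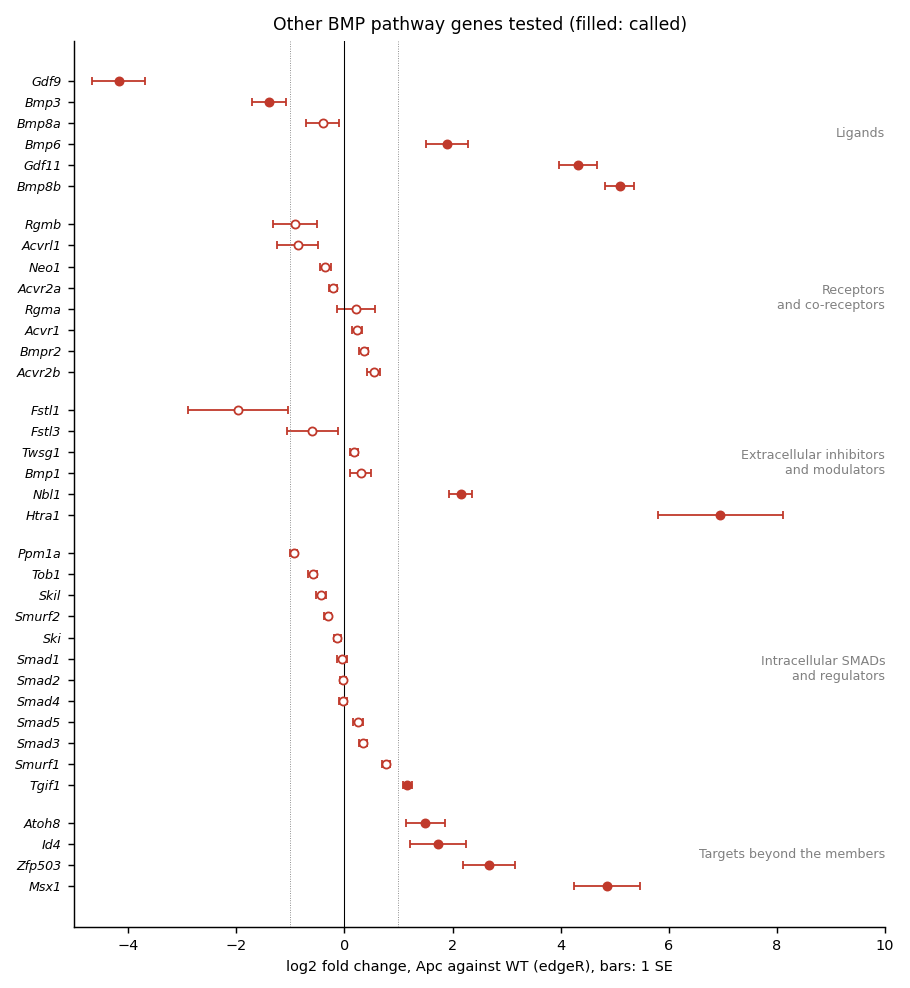
Log2 fold changes between Apc and WT from edgeR with 1 SE (x axis) of the 36 tested genes of the wider BMP list (y axis), grouped by role, with filled points for genes called. Called genes are spread over the ligands, the extracellular proteins, Tgif1 and the targets, and no tested receptor or signalling SMAD is filled.

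In P-Rspo3 against WT, none of the 36 genes tested on this list was called by edgeR, 5 had an unadjusted p under 0.05, and DESeq2 called Fstl1 lower (log2 fold change -3.53, adjusted p = 0.016), a gene named here after its values were seen. Between Apc and P-Rspo3, 35 were tested, 5 of which passed the filter only through Apc. The 5 were Bmp6, Gdf11, Htra1, Id4 and Msx1, so these were tested by way of their level in Apc, and all 5 were called higher. Of the 35, 10 were called higher and 3 lower, beside 13.4% and 13.3% of all genes tested, and the median log2 fold change was 0.23 against 0.00 over all genes. The 3 lower were Bmp3 (-2.34 ± 0.37, SE, adjusted p = 0.00051), Gdf9 (-3.57 ± 0.61, adjusted p = 0.00087) and Rgma, a BMP co-receptor (-1.04 ± 0.33, adjusted p = 0.024). The 10 higher were Bmp6, Bmp8b, Gdf11, Nbl1, Htra1, Tgif1, Id4, Msx1, Atoh8 and Zfp503, which were also the 10 called higher against WT through the same Apc libraries. Msx1 had a log2 fold change of 6.23 ± 0.68 (adjusted p = 5.0e-05) in this comparison.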

How the data were processed

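Per the submitters' processing notes, the authors used STAR on GRCm38, HTSeq 0.6.0 for the deposited counts, which are whole and not normalized, and Cufflinks 2.2.1 for the deposited FPKM. The annotation release and the strand setting are not given in the sources used here. GENCODE vM21 gave symbols and coordinates for 42462 of 43629 genes. The 10 members, the 60 further genes and the marker lists were chosen with earlier results of these data known. Members were named in every comparison, and genes of the wider list where they were called or are receptors or SMADs, and the rest of that list mostly enters as counts.

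The test was glmQLFTest of edgeR 4.0.16 (R 4.3.3) on TMM-normalized counts, fitted anew for each comparison. A gene entered if 4 libraries reached an FPKM of 0.1, and p-values were adjusted over every gene that entered. The SE is the log2 fold change divided by the root of its F. In each of the 3 designs, simulation with 200 genes changed by known folds was used to check the code. Alternatives were DESeq2 1.42.0, its size factors, limma 3.58.1 on log2(FPKM + 1) and log2(FPKM + 0.1), other filters, a joint fit of the groups, leaving out single libraries, the newer form of the quasi-likelihood test, the genotype field for the ungrouped libraries, and the line number as a block. The line as a term was added after the data were seen. WT and Apc share line numbers in the labels. Deviations from the group mean correlated at -0.005 to 0.221 between libraries of the same number (4 pairs, median 0.110) and at a median of -0.040 between the 12 other pairs. Totals were 28902729 to 35528495 counts, and the SD and SE given include the spread between libraries. No 2 libraries were near sampling noise (lowest chi-square per gene 20.5). In 2 libraries the title conflicts with the genotype field, and they entered no group.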

Additional observations from a re-analysis of the deposited data

Results flagged for a closer look

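Of the 30 combinations of a member and a group, 2 held a library whose gap to its nearest neighbour was large for the range of its group by Dixon's test, and chance gives about 1 such case in 20 groups. For Bmp4, the dox-naive WT library stood at 0.283 CPM (8 counts), above 0 to 0.0753 CPM in the 4 flox lines. For Bmpr1a, the P-Rspo3 culture F stood at 148.4 CPM, below 161.1 to 162.6 CPM in the other cultures.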

How the results depend on the processing

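The count of called members was 6 to 7 between Apc and WT, 0 between P-Rspo3 and WT and 5 to 7 between Apc and P-Rspo3 when 1 library at a time was left out, and that of the wider list was 12 to 16, 0 and 13 to 17. DESeq2 called 1 member (Bmp7) and 1 gene of the wider list (Fstl1) between P-Rspo3 and WT. On the wider list, adjusted p alone gave 24 calls between Apc and WT and 25 between Apc and P-Rspo3, no filter on FPKM gave 20 and 23, and a filter at an FPKM of 1 gave 8 between Apc and P-Rspo3. The line number as a replicate block left 6 members called between Apc and WT and 14 genes of the wider list, and it reversed 2 uncalled log2 fold changes, Bmpr1a to -0.035 and Smad7 to -0.072. Leaving out 1 library gave -0.036 to 0.043 for Bmpr1a and -0.29 to 0.24 for Smad7 in that comparison, and -0.064 to 0.38 for Bambi and -0.13 to 0.11 for Smad6 between P-Rspo3 and WT. The line as a term gave 0.26 for Bmp2, 0.082 for Bmpr1a, 0.17 for Id1, 0.040 for Id2 and 0.17 for Smad6, and limma on FPKM gave 0.041 and 0.042 for Smad6 with pseudocounts of 1 and 0.1. With log2(FPKM + 1), Bmp2, Bambi and Smad6 lost their calls between Apc and WT (log2 fold changes of -0.72, 0.86 and -0.53) and Id2 gained one (1.18), and Smad6 was also lost with log2(FPKM + 0.1) (-0.89). Between Apc and P-Rspo3, Smad6 lost its call on both scales (-0.57 and -0.94) and Bambi with log2(FPKM + 1) (0.81). The median of all genes on these scales was shifted by 0.17 and 0.28 between Apc and WT and by 0.16 and 0.25 between Apc and P-Rspo3. Bmp4 was not tested with the filter at an FPKM of 1. The cause of these changes was not tested. At these depths a gene at 3 counts or fewer in a library is at the limit of detection.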

Other observations

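The 2 libraries with conflicting labels, titled LIPO and NAIVE_F, were read as single values. For LIPO all 10 members lay inside the range of the 5 WT libraries, with Bmp4 at 1 count. For NAIVE_F, 6 members lay inside that range and 4 lay below it: Bmp7 at 10.45 CPM, Id3 at 10.38, Smad6 at 4.21 and Smad7 at 5.74. The values of Bmp7, Id3 and Smad7 lay inside the ranges of the P-Rspo3 cultures. If NAIVE_F were counted as WT, P-Rspo3 and WT would therefore overlap in CPM for these members too. Bmp4 was at 0 counts in NAIVE_F.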
